A study of Homo sapiens with 24 samples.

Results

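The regions described here are the accessible chromatin sites around 2 genes, THSD4 on chromosome 15 and STC2 on chromosome 5, in T47D cells, a long-established luminal breast cancer line of human origin with estrogen receptor. A member is any ATAC-seq peak of the deposited table whose midpoint lies within 150 kb of the hg38 interval of either gene. This gave 140 of 189403 peaks, 101 at THSD4 and 39 at STC2. The loci were picked because a peak of each had lower values with fulvestrant, so the fulvestrant values below are a description without a test. Which peak was meant is not stated. The member with the smallest unadjusted p among those below 0 with fulvestrant was taken, and is called the peak that picked the locus. In edgeR's quasi-likelihood test no peak of the whole table was called in the fulvestrant comparison, with 0 of 156745 tested peaks past a Benjamini-Hochberg adjusted p of 0.05, 6210 at an unadjusted p under 0.05, and 0 member peaks called by DESeq2. With the replicate block 2 of all tested peaks were called lower in it, 1 of them at THSD4. With a term for the set of replicates 4 were, among them 1 THSD4 and 1 STC2 peak. The loci were picked on this contrast, so these member calls are a description and no test. The loci are therefore named by their genes and not as fulvestrant-sensitive.

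ATAC-seq uses the Tn5 transposase to insert adapters into open chromatin, so that the count in a peak follows how accessible a site is. Each of 6 groups held 4 libraries. After 1 day in complete medium, 4 groups were exposed for 1 h to 100 nM fulvestrant, 100 nM raloxifene, 100 nM tamoxifen or vehicle (0.1% DMSO). After 3 days in hormone-poor medium (no phenol red, charcoal-stripped serum), the remaining 2 groups received 1 nM estradiol or vehicle (0.1% DMSO) for 1 h and are called starved. T47D was the only cell line used, and no group carried an engineered allele. In pooled cells, a larger share of cells with an open site and a wider opening in each cell cannot be told apart.

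The estrogen receptor is a ligand-activated transcription factor that binds estrogen response elements, many of them in distal enhancers, together with the pioneer factor FOXA1. Estradiol activates it, fulvestrant is an antagonist that leads to its degradation, and raloxifene and tamoxifen are selective modulators that oppose it in breast cells. STC2 encodes stanniocalcin 2, a secreted glycoprotein that is a known estrogen-regulated gene of breast cancer cells and that binds and inhibits the metalloproteinase PAPP-A, which cuts IGF-binding protein 4. THSD4 encodes a thrombospondin repeat protein of the ADAMTS-like family that associates with fibrillin microfibrils of the extracellular matrix.

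The promoter sequences are shown because the 2 genes differ at them: a peak over the first start of THSD4 was higher with estradiol, and the peak over the start of STC2 had similar values in the vehicle and estradiol groups. Each sequence runs 5′ to 3′ on the gene's strand, from 250 bases before the start site to 50 after it, as RefSeq gives it on GRCh38.p14. Capitals mark matches to the motifs named after them.
THSD4 start 1 (chr15:71096644-71096943, plus strand): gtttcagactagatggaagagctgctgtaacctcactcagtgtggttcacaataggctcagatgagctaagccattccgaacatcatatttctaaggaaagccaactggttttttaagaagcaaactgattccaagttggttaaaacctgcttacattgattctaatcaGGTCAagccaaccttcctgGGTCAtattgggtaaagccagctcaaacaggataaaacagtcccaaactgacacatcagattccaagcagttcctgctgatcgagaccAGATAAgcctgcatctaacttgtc
THSD4 start 2 (chr15:71115221-71115520, plus strand): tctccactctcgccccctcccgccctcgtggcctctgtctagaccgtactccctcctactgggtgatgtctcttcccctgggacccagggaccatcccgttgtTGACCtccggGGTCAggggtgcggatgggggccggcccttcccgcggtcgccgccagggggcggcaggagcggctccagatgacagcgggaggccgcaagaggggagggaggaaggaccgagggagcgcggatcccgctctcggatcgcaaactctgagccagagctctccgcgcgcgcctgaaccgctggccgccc
STC2 (chr5:173328365-173328664, minus strand): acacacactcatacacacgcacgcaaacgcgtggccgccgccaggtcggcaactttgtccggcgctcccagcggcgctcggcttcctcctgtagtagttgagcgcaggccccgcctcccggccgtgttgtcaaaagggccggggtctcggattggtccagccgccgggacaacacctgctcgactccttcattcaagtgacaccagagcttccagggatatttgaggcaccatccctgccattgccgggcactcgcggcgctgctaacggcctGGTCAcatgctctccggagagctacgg
The motifs searched on both strands were the palindromic estrogen response element (GGTCA and TGACC with 3 bases between), its part GGTCA, the forkhead motif TGTTTAC, the AP-1 motif TGANTCA and the GATA motif AGATAA. Of 34943 promoters of the same length, 0.0572% held the full element, 37.4% held GGTCA, 3.42% the forkhead motif, 7.72% the AP-1 motif and 10.4% the GATA motif. The window of THSD4 start 1 held GGTCA at -81 and -62 and AGATAA at 27, counted from the start site, and overlapped a peak. THSD4 start 2 held GGTCA at -137 and its reverse complement at -147, and no peak overlapped it (the nearest peak's middle lay 349 bp from the start). STC2 held GGTCA at 24 and overlapped a peak. None of the 3 printed windows held the full element, the forkhead motif or the AP-1 motif in these letters. THSD4 start 3 (chr15:71546986-71547285) is not printed. Its window held none of the motifs and overlapped no peak, and the nearest peak's middle lay 14131 bp from the start. GC content was 43% at THSD4 start 1, 70.7% at start 2 and 64% at STC2, beside a median of 58.7% over all promoters.

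Total counts in peaks ran from 5448411 to 12140005 in 22 libraries, against 2422981 in starved vehicle replicate 3 and 434598 in fulvestrant replicate 4. A single count was worth 1.54 CPM (counts scaled to library size, with TMM factors) in fulvestrant replicate 4, where 37.1% of members had no count, and 0.394 CPM in starved vehicle replicate 3. In the other libraries it was worth 0.0835 to 0.18 CPM. Vehicle replicates 3 and 4 in complete medium carry fulvestrant in 1 label and DMSO in title and description, and were grouped by title. Nothing in the labels shows that replicates were separate cultures, so a p-value here speaks of the spread among these libraries alone, and intervals cover no other error. The highest peak within 10 kb of each of 8 luminal markers had 26.1 to 90.5 CPM, against 3.94 to 39.5 CPM for 6 basal and mesenchymal markers, of which KRT5 was the lowest. The ranges overlap. The highest peak near the blood cell gene PTPRC had 3.63 CPM. The part of other cells in the results was not tested.

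THSD4 spans 686.49 kb (chr15:71096894-71783383, plus strand), and 82 of its 101 peaks lay inside the gene. The count filter kept 89 for testing, and the other 12 had at most 1.29 CPM in any group mean. Peaks were mostly low, with a median of 2.06 CPM over all libraries and a highest value of 30.6 CPM. The window took in parts of LRRC49 and MYO9A and NR2E3, a nuclear receptor gene of photoreceptors. The outermost members lay 122.7 kb before and 133.6 kb after the gene, and the nearest peaks left out lay 204.3 and 174.4 kb away.

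With estradiol, 7 of the 89 tested THSD4 peaks rose and 0 fell in starved cells (edgeR, adjusted p under 0.05), where 0.813% of all tested peaks rose and 0.0223% fell. DESeq2 also called 7 higher and 0 lower. At 16 peaks the unadjusted edgeR p was under 0.05 in either direction, beside 9390 of all 156745 tested peaks. The median log2 fold change over the 89 peaks was 0.13. The 7 peaks lay within 45.693 kb, from 25.2 kb before to 20.3 kb after the first start site, and 4 of them lay inside the gene. Of 13 tested peaks in that stretch 7 were called, and of 74 tested peaks beyond it towards the gene's end 0 were called. The stretch was drawn around the calls, so these 2 counts carry no test.

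**Figure D1:**
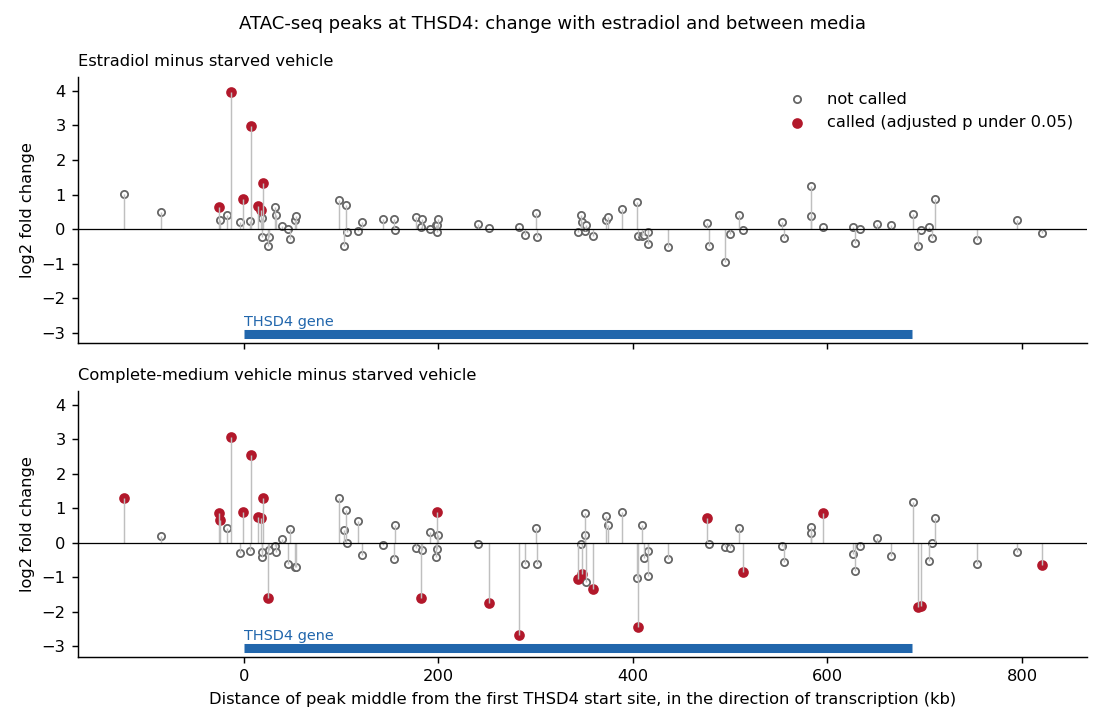
Log2 fold change of each of the 89 tested THSD4 peaks (vertical axis) against the distance of its middle from the first start site in kb (horizontal axis), for estradiol minus starved vehicle (top) and complete-medium vehicle minus starved vehicle (bottom). Filled red points are called peaks, open points are not called, and the blue bar is the gene; the 7 estradiol calls sit around the first start, as do 8 of the 12 higher calls between media, while the 12 lower calls lie further towards the gene's end or past it.

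The peak that picked the locus (chr15:71117051-71117293) lies in the gene, 20.3 kb after the first start. Its 4 libraries had 12.3, 13.2, 13.4 and 15.8 CPM with estradiol, against 7.14, 5.62, 3.94 and 4.11 CPM with starved vehicle. The groups did not overlap, and the log2 fold change was 1.34 (SE 0.178, edgeR adjusted p = 6.14e-08). This comparison shares no library with the fulvestrant comparison that picked the peak.

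A peak 7.92 kb after the first start (chr15:71104647-71104989) was nearly closed in starved cells. It had 22.7, 19.4, 19.8 and 15.9 CPM with estradiol, against 1.93, 2.93, 1.18 and 2.77 CPM with starved vehicle. Every estradiol library stood far above every starved one, with a log2 change of 2.99 (SE 0.32, edgeR adjusted p = 1.24e-06) and a ratio of mean CPM of 8.83.

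The peak over the first start (chr15:71096615-71096933), whose window is printed above, was 1 of the 2 highest at the locus. It had 36.5, 40.0, 34.1 and 33.4 CPM with estradiol, against 22.4, 22.2, 10.2 and 17.5 CPM with starved vehicle. It was open in all 8 libraries and higher in all 4 with estradiol, by 0.89 on the log2 scale (SE 0.148, edgeR adjusted p = 0.000124). A low peak 12.7 kb before the start (chr15:71084047-71084247) had 12, 31, 28 and 15 counts with estradiol, against 3, 1, 0 and 0 counts with starved vehicle. Its fitted log2 fold change of 3.98 (SE 0.61, adjusted p = 2.49e-06) rests on 4 starved counts and depends on the prior count.

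The other 3 calls were smaller. At 18.1 kb after the start (chr15:71114896-71115101), in the gene and before its second start, estradiol libraries averaged 30.5 ± 2.41 CPM and starved vehicle libraries 20.7 ± 3.26 CPM (SD, n = 4 each), a log2 change of 0.54 (SE 0.121). Without starved vehicle replicate 4 it was 0.44 and no longer called (edgeR adjusted p = 0.211, within 0.000649 to 0.563 over the alternatives). At 14.5 kb (chr15:71111278-71111503) the averages were 15.6 ± 1.39 CPM with estradiol and 8.92 ± 2.31 CPM with starved vehicle, a difference of 0.68 (SE 0.158). That call was lost without starved vehicle replicate 1, at 0.67 (edgeR adjusted p = 0.0565, within 0.000609 to 0.239 over the alternatives). The seventh, 25.2 kb before the start (chr15:71071600-71071818) and named after its values were seen, averaged 15.9 ± 2.30 CPM with estradiol and 10.2 ± 0.952 CPM with starved vehicle, a difference of 0.63 (SE 0.152, edgeR adjusted p = 0.0116).

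The labels name no batch, but replicates 1 and 2 and replicates 3 and 4 were also fitted apart. Within replicates 1 and 2 alone 4 THSD4 peaks were called higher with estradiol, and within replicates 3 and 4 alone 5 were.

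Between media, THSD4 moved in both directions. Complete-medium vehicle libraries were higher than starved vehicle libraries in 12 of 89 tested peaks and lower in 12, where 7.93% of all tested peaks were higher and 9.92% lower. The 12 higher ones include the peak that picked the locus. Its own p is not given, because the comparison shares its vehicle libraries with the fulvestrant one. The estradiol and media comparisons share the starved vehicle libraries, so their values stand side by side without a measure of overlap. In the 45.693 kb stretch 8 of 13 tested peaks were higher in complete medium and 0 lower. Beyond it towards the gene's end 3 of 74 were higher and 12 lower. The stretch was drawn around estradiol calls against the same starved libraries, so these counts carry no test.

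At the peak 7.92 kb after the start, complete-medium vehicle libraries had 16.9, 14.3, 13.2 and 11.9 CPM, against the 1.18 to 2.93 CPM of starved vehicle given above, a log2 difference of 2.54 (SE 0.345, edgeR adjusted p = 7.63e-06). This peak stood next in the fulvestrant order, which used the same complete-medium vehicle libraries, so its p is a description. The peak over the first start averaged 36.1 ± 1.19 CPM in complete-medium vehicle libraries and 18.1 ± 5.71 CPM in starved vehicle libraries, a difference of 0.89 (SE 0.149). The peak 20.3 kb after the start had a log2 difference of 1.29 (SE 0.182). With estradiol the same sites averaged 19.5, 36.0 and 13.7 CPM, and with complete-medium vehicle 14.1, 36.1 and 13.2 CPM.

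The lower calls lay inside the gene and past its end. A peak 9.33 kb past the gene (chr15:71792601-71792816) had 1.70, 2.30, 2.22 and 1.87 CPM with vehicle in complete medium, against 6.91, 8.79, 8.27 and 5.90 CPM with vehicle in starved medium. The groups did not overlap, and the difference was -1.82 (SE 0.258, edgeR adjusted p = 5.52e-08). Its neighbour 6.93 kb past the gene (chr15:71790194-71790432) had a difference of -1.86 (SE 0.264, edgeR adjusted p = 6.15e-08). With estradiol these neighbours averaged 7.16 ± 1.84 and 4.53 ± 0.988 CPM, and neither passed the test against starved vehicle (log2 fold changes of -0.03 and -0.50).

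Sites deep in the gene were lower still in complete medium but had few counts. The peak 283.2 kb after the first start (chr15:71379988-71380188) had 4, 3, 0 and 3 counts with vehicle in complete medium, against 21, 25, 0 and 14 counts with vehicle in starved medium, a fitted difference of -2.67 (SE 0.554). Starved vehicle replicate 3, a shallow library, also had 0 there, so the groups overlapped. The peak 405.1 kb after the start (chr15:71501850-71502050) had a difference of -2.45 (SE 0.489), which was not called within replicates 3 and 4 alone (-1.92). On the other side of the gene, a peak inside LRRC49 (chr15:70974066-70974337), 122.7 kb before the first start, was higher in complete medium by 1.30 (SE 0.414, edgeR adjusted p = 0.019). That call did not hold without complete-medium vehicle replicate 1 (1.16), complete-medium vehicle replicate 3 (1.04) or starved vehicle replicate 2 (1.05). It also did not hold in DESeq2 (1.24, adjusted p = 0.0543), within replicates 1 and 2 (1.48, edgeR adjusted p = 0.0735) or within replicates 3 and 4 (1.08, edgeR adjusted p = 0.344).

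STC2 is short, 13.692 kb (chr5:173314723-173328414, minus strand), and 4 of its 39 peaks lay inside the gene. The filter kept 29 for testing. Of the other 10, 1 had no count in any library, and none exceeded 2.27 CPM in a group mean. The tested peaks had a median of 7.36 CPM and a highest value of 44.1 CPM over all libraries. The outermost members lay 148.2 and 146.5 kb from the gene, and the nearest peaks left out at 151.4 and 152.7 kb. These left-out peaks averaged 2.07 and 18.8 CPM with fulvestrant, against 1.99 and 23.6 CPM with complete-medium vehicle. The cardiac homeobox gene NKX2-5 lies in the window beyond the end of STC2.

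With estradiol, 4 of 29 tested STC2 peaks rose and 0 fell (edgeR), beside the same 0.813% and 0.0223% of all tested peaks. DESeq2 called 5 higher and 0 lower. At 13 peaks the unadjusted edgeR p was under 0.05, beside 9390 of all 156745 tested peaks. The median log2 fold change was 0.21. All 4 lay far before the gene, 124.9 to 144.5 kb from its start, within 19.894 kb. None of the 15 tested peaks within 50 kb of the start was called. Within replicates 1 and 2 alone 3 peaks were called, within replicates 3 and 4 alone 6, and 7 with a term for the set.

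The highest of the 4, 144.5 kb before the start (chr5:173472660-173473125), was also the highest peak of the locus, and its nearest coding gene is BOD1 at 134.3 kb. It had 23.7, 27.3, 35.4 and 32.6 CPM with estradiol, against 7.25, 9.65, 9.06 and 7.78 CPM with starved vehicle. The groups were well apart, with a log2 change of 1.86 (SE 0.217, edgeR adjusted p = 1.9e-06). At 124.9 kb before the start (chr5:173453231-173453461) the libraries had 16.1, 19.8, 22.1 and 19.96 CPM with estradiol, against 6.34, 4.15, 2.76 and 5.36 CPM with starved vehicle. That is a log2 change of 1.95 (SE 0.293, edgeR adjusted p = 0.000375), again with no overlap.

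The other 2 calls are neighbours of the second. The peak 126.5 kb before the start (chr5:173454809-173455065) averaged 8.13 ± 2.39 CPM with estradiol and 3.42 ± 1.35 CPM with starved vehicle, a log2 change of 1.18 (SE 0.224, edgeR adjusted p = 0.000312). The peak 126.8 kb before it (chr5:173455116-173455316) averaged 4.72 ± 0.68 CPM with estradiol and 1.96 ± 0.57 CPM with starved vehicle, a log2 change of 1.31 (SE 0.304, edgeR adjusted p = 0.00806). This last call was lost without starved vehicle replicate 4 (1.09, edgeR adjusted p = 0.199) and without estradiol replicate 3 (1.20, edgeR adjusted p = 0.085), within a range of 0.000845 to 0.624 over the alternatives. Within replicates 1 and 2 alone neither neighbour was called (0.47 and 0.87).

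**Figure D2:**
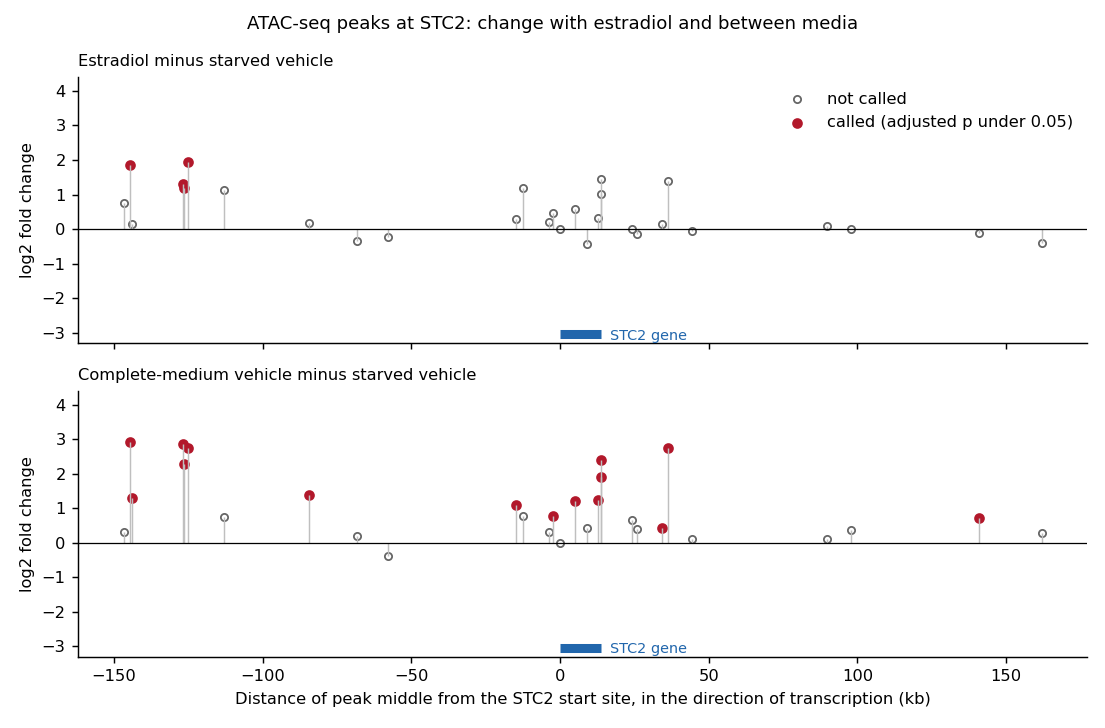
Log2 fold change of each of the 29 tested STC2 peaks (vertical axis) against the distance of its middle from the start site in kb (horizontal axis, negative before the gene), for estradiol minus starved vehicle (top) and complete-medium vehicle minus starved vehicle (bottom). Filled red points are called peaks, open points are not called, and the blue bar is the gene; the 4 estradiol calls lie 124.9 to 144.5 kb before the start, and the 15 calls between media are all above 0.

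The promoter peak of STC2 (chr5:173328390-173328615) had similar values in the estradiol and both vehicle groups. It averaged 37.5 ± 2.44 CPM with estradiol, 37.6 ± 0.884 CPM with complete-medium vehicle and 36.9 ± 3.56 CPM with starved vehicle (SD, n = 4 each). The log2 fold change with estradiol was -0.004 (approximate 95% interval -0.20 to 0.19), and that between media was 0.003 (-0.20 to 0.20). The peak over the first THSD4 start had an interval of 0.60 to 1.18 with estradiol.

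The STC2 peak that picked the locus (chr5:173291954-173292259) lies 22.6 kb past the gene's end. It had 2.09, 3.77, 2.26 and 1.39 CPM with estradiol, against 1.25, 0.489, 0.788 and 0.984 CPM with starved vehicle. The estradiol libraries were all higher, but the log2 change of 1.395 (SE 0.412) did not pass the test (edgeR adjusted p = 0.107). It passed with a term for the set of replicates (adjusted p = 0.0263) and ranged up to 0.925 over the alternatives.

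Between media, STC2 moved in 1 direction. Complete-medium vehicle libraries were higher in 15 of 29 tested peaks and lower in 0 (edgeR), beside 7.93% and 9.92% of all tested peaks. At 18 the unadjusted edgeR p was under 0.05, beside 46248 of all 156745 tested peaks. DESeq2 called 12 higher and 0 lower. The 15 include the peak that picked the locus, with 7.12, 6.25, 6.77 and 4.31 CPM in complete-medium vehicle libraries (log2 difference 2.75). Its own p is not given, because these vehicle libraries helped to pick it. The median difference over the 29 peaks was 0.74, against -0.11 over the 89 at THSD4.

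Within 50 kb of the STC2 start, 8 of 15 tested peaks were higher in complete medium. The highest of these were chosen after their values were seen. A peak 0.251 kb past the gene's end (chr5:173314273-173314672) had 51.8, 43.4, 33.5 and 27.99 CPM with complete-medium vehicle, against 7.93, 6.72, 7.48 and 7.51 CPM with starved vehicle, a difference of 2.41 (SE 0.427, edgeR adjusted p = 0.000454). With estradiol the same peak had 14.1, 20.5, 22.9 and 22.2 CPM, all above the starved libraries, and did not pass the test (log2 change 1.44, SE 0.472, edgeR adjusted p = 0.37). A peak inside the gene (chr5:173315624-173315877) averaged 36.0 ± 3.15 CPM with complete-medium vehicle and 15.1 ± 1.89 CPM with starved vehicle, a difference of 1.25 (SE 0.136, edgeR adjusted p = 2.21e-11). With estradiol it averaged 18.9 ± 3.13 CPM (0.33, edgeR adjusted p = 0.7).

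Of the 6 tested peaks more than 120 kb before the start, 5 were higher in complete medium. The peak 144.5 kb before the start had 60.2, 62.3, 66.3 and 59.1 CPM with complete-medium vehicle, a difference of 2.91 from starved vehicle (SE 0.197, edgeR adjusted p = 8.41e-12). The peak 124.9 kb before averaged 34.3 ± 3.40 CPM with complete-medium vehicle, a difference of 2.76 (SE 0.268). Next to the highest peak, a site 144.0 kb before the start (chr5:173472360-173472560, chosen after its values were seen) averaged 22.2 ± 1.27 CPM with complete-medium vehicle and 9.39 ± 1.11 CPM with starved vehicle, a difference of 1.29 (SE 0.157). With estradiol it averaged 9.91 ± 1.06 CPM and did not pass the test (0.14), although it lies beside a peak that did.

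Estradiol libraries were also set against complete-medium vehicle libraries. This comparison was added after the data were seen, and it differs in medium, days in medium and ligand at once. Estradiol libraries were higher in 16 and lower in 3 of 89 tested THSD4 peaks, and higher in 0 and lower in 14 of 29 tested STC2 peaks, where 9.39% of all tested peaks were higher and 7.25% lower. For STC2, 18 peaks had an unadjusted edgeR p under 0.05, beside 44760 of all 156745 tested peaks, and DESeq2 called 0 higher and 11 lower. The 14 include the peak that picked the locus, whose own p is not given, and 13 remain without it. Without estradiol replicate 3 the 3 lower THSD4 calls became 1, and without the 2 vehicle libraries of conflicting labels the 14 lower STC2 calls became 9.

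At the 7 estradiol-raised THSD4 peaks the ratio of mean CPM with estradiol to mean CPM with complete-medium vehicle ran from 0.842 to 1.87. The log2 difference was 0.46 (SE 0.21, edgeR adjusted p = 0.151) at the peak 7.92 kb after the start and -0.006 (SE 0.129) at the first start. Apart from the peak that picked the locus, whose p is not given, no difference at these 7 peaks passed the test. With the replicate block the first of these differences passed (0.48, edgeR adjusted p = 0.00328, over a range of 0.00328 to 0.533 among its alternatives), as it did without tamoxifen replicate 1 (0.47), and without estradiol replicate 1 that of the peak 12.7 kb before the start did (1.07). At the 4 STC2 peaks the ratio ran from 0.339 to 0.568, and all 4 were called lower with estradiol. The differences were -1.05 (SE 0.148, edgeR adjusted p = 8.19e-06) at 144.5 kb, -0.81 (SE 0.194, edgeR adjusted p = 0.00544) at 124.9 kb, -1.11 (SE 0.153) at 126.5 kb and -1.56 (SE 0.187) at 126.8 kb. The THSD4 peak at 7.92 kb and the STC2 peaks at 124.9 and 126.8 kb stood next in the fulvestrant order. That order used the same vehicle libraries, so the results of these peaks here are a description.

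Summed over all members, STC2 had 260 ± 14.2 CPM with estradiol, 407 ± 28.4 CPM with complete-medium vehicle and 185 ± 3.50 CPM with starved vehicle. THSD4 had 486 ± 20.7 CPM with estradiol, 429 ± 16.4 CPM with complete-medium vehicle and 391 ± 38.5 CPM with starved vehicle (SD, n = 4 each). For STC2 the estradiol sum lay between the vehicle sums, and for THSD4 it lay above both. The sum over the 7 raised THSD4 peaks alone was 133 ± 3.39 CPM with estradiol, 134 ± 2.14 CPM with complete-medium vehicle and 65.4 ± 11.7 CPM with starved vehicle. Sums over chosen members carry no test.

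In complete medium, fulvestrant gave lower values at some members of both loci. The peak that picked THSD4 had 9.16, 10.8, 8.28 and 1.54 CPM with fulvestrant, against 12.9, 12.9, 12.9 and 14.2 CPM with vehicle. Every fulvestrant library lay below every vehicle library, the fourth on 1 count, and the log2 fold change was -0.51 (SE 0.17). The peak that picked STC2 had 5.30, 3.76, 1.98 and 3.09 CPM with fulvestrant, against 7.12, 6.25, 6.77 and 4.31 CPM with vehicle. Those groups overlapped, since fulvestrant replicate 1 exceeded vehicle replicate 4, and the log2 fold change was -0.64 (SE 0.249). Without fulvestrant replicate 4 the values were -0.47 at THSD4 and -0.63 at STC2. Without the 2 vehicle libraries of conflicting labels they were -0.49 and -0.76.

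The members next in order of the same contrast were the THSD4 peaks 7.92 kb after the start (-0.85, SE 0.279) and 6.42 kb after it (chr15:71103210-71103417, -0.63, SE 0.267), and the STC2 peaks 124.9 kb (-0.54, SE 0.206) and 126.8 kb (-0.37, SE 0.173) before the start. The first of these had 10.1, 8.48, 3.06 and 7.72 CPM with fulvestrant, against 16.9, 14.3, 13.2 and 11.9 CPM with vehicle, with no overlap. The peak 124.9 kb before STC2 had 26.3, 28.7, 16.02 and 3.09 CPM with fulvestrant, against 38.2, 33.4, 35.3 and 30.1 CPM with vehicle, also with no overlap. Fulvestrant replicates 3 and 4 were the lowest of their group at this peak. In replicate 4 a single count was worth 1.54 CPM, so its 7.72 and 3.09 CPM rest on few counts. Its TMM factor was 1.49, against 0.96 to 1.05 in the other libraries.

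Over all tested members, the fulvestrant fold change was below 0 in 44 of 89 THSD4 peaks (median 0.003) and 19 of 29 STC2 peaks (median -0.05), beside 51.5% of all tested peaks. Among the 13 tested peaks around the first THSD4 start 11 were below 0, with a median of -0.12. That stretch was drawn around the estradiol calls and ends at the peak that picked the locus, so this count carries no test. The STC2 promoter peak had 38.9, 35.2, 38.5 and 17.0 CPM with fulvestrant, the last on 11 counts, against 38.6, 37.5, 37.9 and 36.5 CPM with vehicle, and a fitted change of -0.04 (SE 0.107).

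The fulvestrant values differed between the sets of replicates. Within replicates 1 and 2 alone the changes were -0.38 at the peak that picked THSD4 and -0.54 at the peak that picked STC2, and within replicates 3 and 4 alone -0.87 and -1.47. At the peak 144.5 kb before STC2 they were -0.05 within replicates 1 and 2 and -0.87 within replicates 3 and 4. The shallow fulvestrant replicate 4 belongs to the second set, and the part of depth in this was not tested. Other libraries also differed between the sets. Summed over all STC2 members, replicates 1 to 4 had 399, 421, 298 and 171 CPM with fulvestrant and 443, 454, 334 and 344 CPM with tamoxifen. They had 448, 431, 390 and 374 CPM with raloxifene and 443, 404, 407 and 374 CPM with complete-medium vehicle. The cause was not tested.

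**Figure D3:**
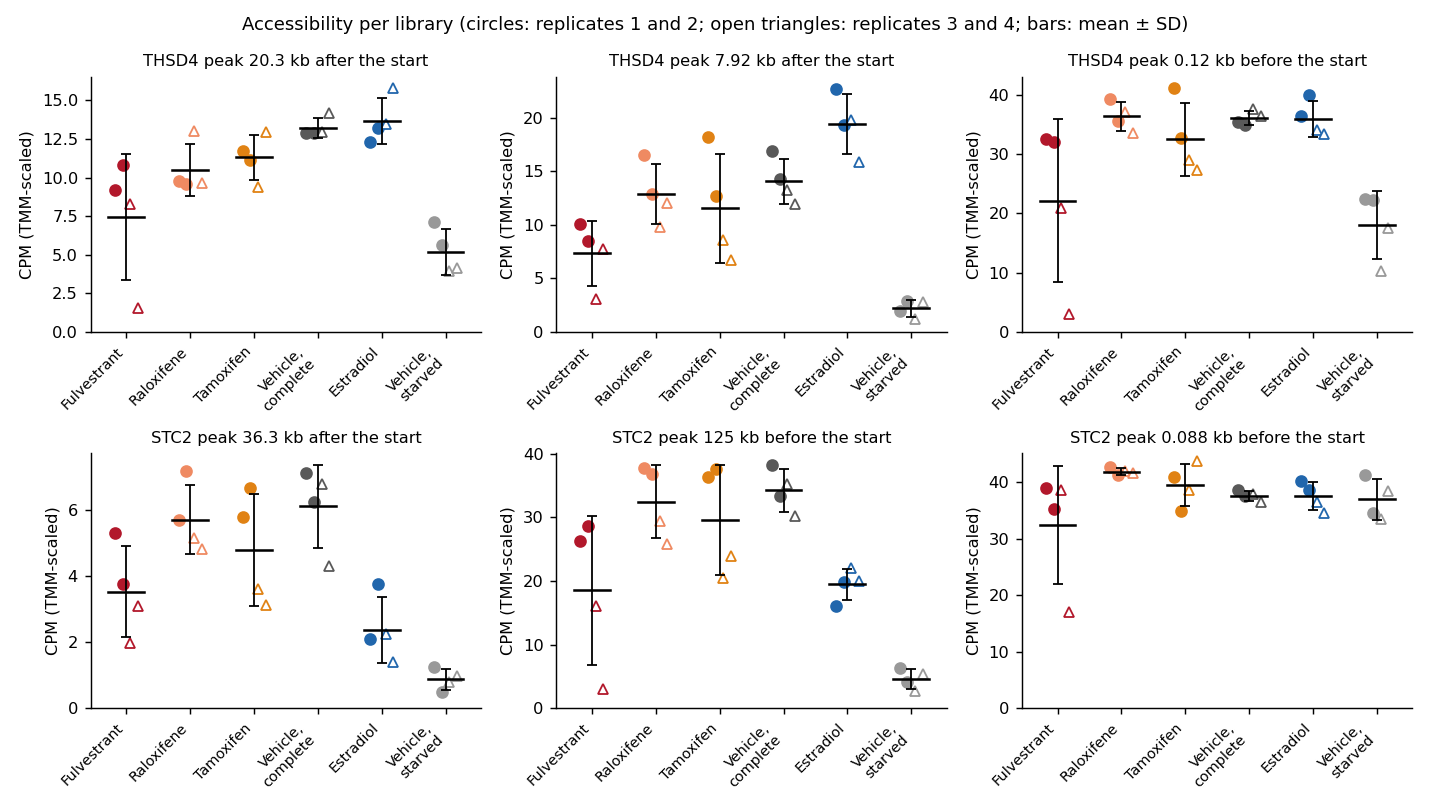
CPM (TMM-scaled, vertical axes) per library in the 6 groups (horizontal axes) at 3 THSD4 peaks (top) and 3 STC2 peaks (bottom). Filled circles are replicates 1 and 2, open triangles replicates 3 and 4, and bars the mean ± SD of 4 libraries. The THSD4 peak 7.92 kb after the start averages 19.5 CPM with estradiol and 2.20 CPM with starved vehicle. The STC2 promoter peak averages near 37 CPM with estradiol, complete-medium vehicle and starved vehicle, and fulvestrant replicate 4 has 17.0 CPM there.

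Raloxifene and tamoxifen were set against the same vehicle libraries. At the peak that picked THSD4 the libraries had 9.76, 9.56, 13.0 and 9.65 CPM with raloxifene and 11.7, 11.1, 9.38 and 13.0 CPM with tamoxifen. The log2 fold changes were -0.33 (SE 0.151) with raloxifene and -0.21 (SE 0.153) with tamoxifen, untested because the vehicle libraries are those that picked the peak. At the peak that picked STC2 they were -0.12 (SE 0.21) with raloxifene and -0.42 (SE 0.227) with tamoxifen. At the peak 7.92 kb after the THSD4 start they were -0.13 (SE 0.23) and -0.33 (SE 0.243), and neither passed the test.

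In edgeR no tested member of either locus was called with raloxifene or tamoxifen, where 0.000638% of all tested peaks were called higher with raloxifene, 0% lower, and 0% in either direction with tamoxifen. At an unadjusted p under 0.05 there were 2 THSD4 and 1 STC2 peaks with raloxifene and 3 THSD4 and 1 STC2 peaks with tamoxifen. Of all 156745 tested peaks, 5970 were under it with raloxifene and 6478 with tamoxifen. DESeq2 called 0 members in each. Among the 7 estradiol-raised THSD4 peaks the fold changes ran from -0.85 to 0.04 with fulvestrant, from -0.33 to 0.26 with raloxifene and from -0.52 to 0.01 with tamoxifen. Among the 4 at STC2 they ran from -0.54 to -0.26 with fulvestrant, from -0.08 to 0.04 with raloxifene and from -0.24 to -0.04 with tamoxifen. The 3 comparisons share the 4 vehicle libraries, so their signs are not independent of each other.

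**Figure D4:**
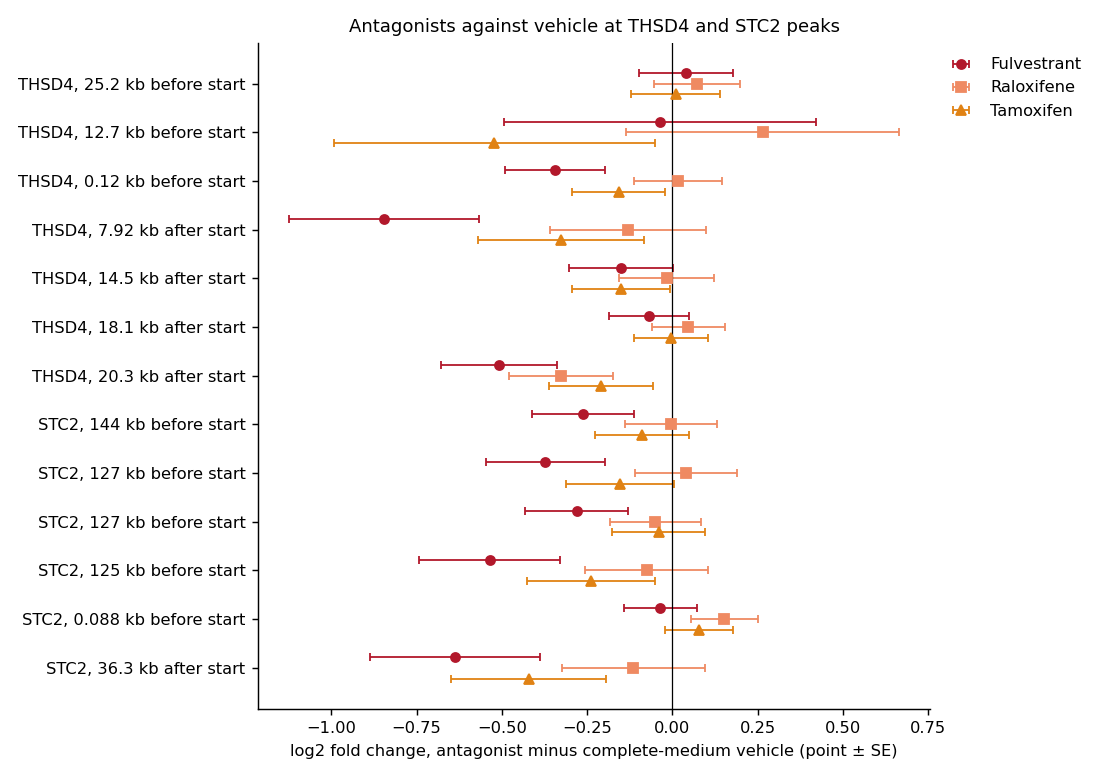
Log2 fold change (horizontal axis, point ± SE) of fulvestrant, raloxifene and tamoxifen, each minus the same complete-medium vehicle libraries, at the 11 estradiol-raised peaks, the peak that picked STC2 and the STC2 promoter peak (rows, by distance from the start site). Fulvestrant points reach -0.85 at the THSD4 peak 7.92 kb after the start, and the STC2 promoter peak stays within -0.04 to 0.15 for all 3 compounds.

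The 3 compounds were given at the same dose and for the same time. Fulvestrant is a steroid made from estradiol by adding a long side chain, raloxifene is a benzothiophene and tamoxifen a triphenylethylene. Raloxifene and tamoxifen were compared directly at all tested members, with no vehicle library involved. In edgeR 0 peaks were called, beside 0% of all tested peaks, and DESeq2 called 0. At an unadjusted edgeR p under 0.05 there were 2 THSD4 and 1 STC2 peaks, beside 6146 of all 156745 tested peaks. At the 18 named peaks the differences ran from -0.64 to 0.79, and each approximate 95% interval held 0. At the peak that picked THSD4 the difference was -0.12 (-0.43 to 0.19), at the peak that picked STC2 0.31 (-0.14 to 0.76), at the first THSD4 start 0.17 (-0.09 to 0.44) and at the STC2 promoter 0.07 (-0.12 to 0.27). Over all 18 peaks the bounds ran from -1.95 to 1.99 on the log2 scale, so the intervals do not show that the compounds act alike.

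Fulvestrant minus raloxifene and fulvestrant minus tamoxifen use the fulvestrant libraries that picked the peaks and are values without a test. At the peak that picked THSD4 they were -0.18 (SE 0.176) against raloxifene and -0.30 (SE 0.177) against tamoxifen. At the peak that picked STC2 they were -0.52 (SE 0.252) and -0.22 (SE 0.27). Over all tested members fulvestrant was below raloxifene in 44 of 89 THSD4 and 18 of 29 STC2 peaks, and below tamoxifen in 40 and 17 (11 at STC2 without fulvestrant replicate 3). The shares of all tested peaks below 0 were 50.6% against raloxifene and 51.3% against tamoxifen. Of all tested peaks, 0.000638% were called lower with fulvestrant than with raloxifene and 0% lower than with tamoxifen.

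For STC2, genes of related function were taken as a list of the stanniocalcin and IGF axis with 10 genes and 204 tested peaks within 50 kb. With estradiol 7 of these peaks rose (3.43%) and 0 fell, beside 0.813% and 0.0223% of all tested peaks. The 7 lay near IGFBP4, which encodes the binding protein that PAPP-A cuts (4 peaks), and IGF1R, the IGF receptor gene (3 peaks). A peak near IGFBP4 (chr17:40448739-40449066) averaged 37.2 ± 6.88 CPM with estradiol and 9.82 ± 0.894 CPM with starved vehicle, a log2 change of 1.91 (SE 0.189, edgeR adjusted p = 2.57e-08). Near IGF1R, another (chr15:98749246-98749535) rose by 2.64 (SE 0.367, edgeR adjusted p = 2.01e-07). Near STC1, the paralog of STC2, 0 of 7 tested peaks were called with estradiol, and near PAPPA 0 of 33. Complete-medium vehicle libraries were higher in 37 (18.1%) and lower in 25 (12.3%) of the 204 peaks, beside 7.93% and 9.92% of all tested peaks, with 16 of the lower ones near PAPPA.

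For THSD4, the list held 20 genes of microfibrils and the ADAMTS-like family with 382 tested peaks within 50 kb. With estradiol 1 of these rose (0.262%) and 0 fell, beside 0.813% and 0.0223% of all tested peaks. It lies near LTBP1 (chr2:33070059-33070485), which encodes a latent TGF-beta binding protein of the microfibrils, and averaged 17.7 ± 4.47 CPM with estradiol and 6.42 ± 2.20 CPM with starved vehicle, a log2 change of 1.33 (SE 0.18, edgeR adjusted p = 2.87e-07). Peaks near ADAMTSL1 (1.19, edgeR adjusted p = 0.251) and MFAP2 (0.72, edgeR adjusted p = 0.263) did not pass. Another peak near LTBP1 (chr2:32904809-32905009) had a negative change that did not pass either (-1.30, edgeR adjusted p = 0.201). Between media that LTBP1 peak was lower in complete medium (-1.90, edgeR adjusted p = 0.0019). Complete-medium vehicle libraries were higher in 31 (8.12%) and lower in 36 (9.42%) of the 382 peaks, shares near the 7.93% and 9.92% of all tested peaks.

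The peaks whose levels ran most like the picking peaks were ranked by Pearson r of log2 CPM over the 24 libraries, among 78314 peaks above the median abundance and outside both windows. For the THSD4 peak they lay in MYOF (r = 0.957), in PGR, the progesterone receptor gene (0.944), 4.52 kb from CCL28 (0.938), in MYB (0.938) and in ERBB4 (0.936), where the median over all candidates was 0.44. For the STC2 peak they lay 50.2 kb from TMEM164 (0.942), in FAM184B (0.933), in LIMS1 (0.929), 321 kb from SH2D4B (0.926) and in AFF3 (0.926), where the median was 0.067. The libraries share the split by medium and the shallow fulvestrant library, so these values describe likeness across the groups and carry no p.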

How the data were processed

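ATAC-seq libraries of T47D cells, 24 in all, had been sequenced and summarised by the authors. The submitters' processing notes name cutadapt 1.8.1, Bowtie2 2.4.4, SAMtools 1.9 and build hg38. How peaks were called and counted, and whether duplicates were removed or reads shifted for Tn5, is not given in the sources used here, and each could change the values. The deposited values are raw counts per peak, with 1 peak set for all libraries and no normalization. Whether peak starts are 0-based or 1-based is not stated in the table. Replicates of a group differed beyond sampling noise in all 36 pairs (chi-square per degree of freedom 1.74 to 3.81).

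A single edgeR fit (version 4.0.16, in R 4.3.3) took all libraries as 6 group means, with TMM scaling, filterByExpr (minimum count 10, minimum total 15) and the two-sided quasi-likelihood F-test (legacy=FALSE, robust=TRUE). Benjamini-Hochberg adjustment ran over the 156745 peaks that passed the filter, with a threshold of 0.05. The SE is the size of the log2 fold change divided by the root of F, and the approximate 95% intervals are normal ones built from it. Because the fit weighs libraries by depth, its fold changes can differ from ratios of mean CPM. Log2 CPM used a prior count of 2. The step was tested on simulated data. Alternatives were RLE factors, total counts, no filter, DESeq2 1.42.0, a block for the replicate number, a term for the set of replicates, fits within each set, a 50 kb window, and leaving out single libraries, the 2 with conflicting labels or the 2 shallow ones.

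Gene intervals came from RefSeq (20056 coding genes, GRCh38.p14), and start sites and promoters from its promoter table. Peak sequences were not used here, and the list of blood markers is not reported in full here. Members, gene lists, tests and the rule for named peaks were chosen with earlier results of these data known. The rule names, per locus, the picking peak (smallest unadjusted p among members below 0 with fulvestrant) and the next 2, up to 6 estradiol calls, up to 4 calls each way between media, the 2 highest peaks and those at the gene's start. Peaks outside the rule are said to be chosen later. The fits within replicates 1 and 2 and within 3 and 4, and the comparison of estradiol with complete-medium vehicle, were added after the data had been seen.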

Additional observations from a re-analysis of the deposited data

Results flagged for a closer look

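Each group of 4 libraries was examined at the 18 named peaks and in the summed CPM of each locus for a single library far from the other 3. Of 120 groups 5 stood out (4.17%), where chance gives about 5%. At the peak that picked THSD4, raloxifene replicate 3 had 13.0285 CPM beside 9.56 to 9.76 CPM in the other raloxifene libraries. At the same peak, complete-medium vehicle replicate 4 had 14.2085 CPM beside 12.9 CPM in each of the other vehicle libraries. At the peak 283.2 kb after the first THSD4 start, complete-medium vehicle replicate 3 had 0 CPM beside 0.383 to 0.431 CPM, which correspond to 3 or 4 counts. At the STC2 promoter peak, fulvestrant replicate 4, the shallow library, had 16.9831 CPM on 11 counts beside 35.2 to 38.9 CPM. Summed over all STC2 members, starved vehicle replicate 2 had 180.145 CPM beside 186.7 to 187.5 CPM. The cause was not tested for any of these.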

How the results depend on the processing

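Most counts stayed within 1.5 times of the reported ones over the 35 alternatives, and no called value changed sign. Within replicates 1 and 2, 4 THSD4 peaks rose with estradiol in place of 7. Within replicates 3 and 4, 4 THSD4 peaks in place of 12 were lower in complete medium, and 8 STC2 peaks in place of 14 were lower with estradiol than with complete-medium vehicle. With a term for the set of replicates, 7 STC2 peaks rose with estradiol in place of 4. In a 50 kb window, which holds fewer STC2 peaks, 0 rose with estradiol, 8 were higher in complete medium, 6 were lower with estradiol than with complete-medium vehicle, and 10, 9 and 9 were below 0 with fulvestrant against vehicle, raloxifene and tamoxifen. Of the 3 THSD4 peaks lower with estradiol than with complete-medium vehicle, DESeq2 called 1 and the fit with the replicate block 5. Without the 2 vehicle libraries of conflicting labels 9 STC2 peaks were lower in that comparison. Leaving out 1 library at a time gave 5 to 7 THSD4 and 3 to 4 STC2 rises with estradiol, 10 to 14 higher and 9 to 13 lower THSD4 peaks and 13 to 15 higher STC2 peaks in complete medium, and, for estradiol against complete-medium vehicle, 12 to 17 higher and 1 to 3 lower THSD4 and 10 to 15 lower STC2 peaks. Peaks below 0 then numbered 44 to 51 at THSD4 and 15 to 21 at STC2 for fulvestrant against vehicle, 42 to 53 and 13 to 19 against raloxifene, and 40 to 49 and 11 to 21 against tamoxifen. The causes were not tested.

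Replicate numbers recur across groups. Deviations of same-numbered libraries correlated at -0.13 to 0.126, with 7 of 36 over 0.1, so the numbers were not taken to pair single libraries. Replicates 1 and 2, and replicates 3 and 4, were closer to each other than across the sets with estradiol, starved vehicle, raloxifene and tamoxifen. With the replicate block 7 THSD4 and 6 STC2 peaks rose with estradiol, the peak that picked STC2 among them (1.39, adjusted p = 0.0385). For fulvestrant against vehicle, the block gave 2 and the set term 4 lower calls among all tested peaks, 1 at THSD4 with either and 1 at STC2 with the set term. Within replicates 3 and 4 this contrast gave 73 higher and 15 lower calls, with 1 lower at each locus. Within replicates 1 and 2 it gave 1 lower call, at neither locus. The contrast is the one that picked the loci, so its member calls carry no test. A single count in fulvestrant replicate 4 is 1.54 CPM, which limits the precision of that library.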
